A study of Mus musculus with 8 samples.

Results

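The receptors of innate immunity that detect microbial molecules and misplaced nucleic acids, with the proteins that carry their signals, were followed in primary mesothelial cells of the mouse omentum, WT and BAP1 KO. The set holds 42 genes, chosen by name: the Toll-like receptors (TLRs) with their accessory proteins and adaptors, the RNA sensors of the RIG-I family with MAVS, the DNA pathway adaptor STING (Tmem173), and the NOD receptors. All 42 were found by Entrez identifier among the 36528 genes listed for each library, 1 of them (Tmem173) under its current symbol Sting1. RNA with a poly(A) tail was sequenced in 8 libraries, 4 of the WT and 4 of the BAP1 KO genotype, in which the gene of the nuclear deubiquitinase BAP1, a tumour suppressor of mesothelioma, was knocked out. The labels give the genotype, the omentum as the source and mesothelial cells as the cell type. They name no agent, deleted exon, Cre driver, strain, age or sex, and do not say how the 4 libraries of each genotype relate, as different mice, cultures or aliquots. The p-values therefore rest on a spread among libraries that may be technical.

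Toll-like receptors span the plasma membrane or the endosome and bind bacterial lipids, flagellin, RNA or DNA. They signal through the adaptors MyD88 and TRIF (Ticam1), which recruit IRAK kinases and TRAF ubiquitin ligases and end in NF-kB, or through TBK1 in the transcription factor IRF3. RIG-I (Ddx58) and MDA5 (Ifih1) detect viral RNA in the cytosol and signal through the mitochondrial protein MAVS, and the enzyme cGAS (Mb21d1) detects DNA and signals through STING. Macrophages carry most of these receptors, and serosal cells such as mesothelium are known to respond to bacterial lipids and to double-stranded RNA.

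Promoter sequences of 4 members with a listed window are given as examples of the outcomes below: Ifih1 and Ddx58, which were lower in BAP1 KO, Irak2, which was higher, and Myd88, which did not pass the test. Each is the 250 bases before the annotated start, 5′ to 3′ along the gene, from RefSeq on GRCm38.p6. Capitals mark matches, on either strand, to the interferon response core GAAANNGAAA, to the form with 1 base less between the repeats, GAAANGAAA, to the core GAGGAA bound by the macrophage factor PU.1, or to the NF-kB consensus.
Ifih1 (chr2:62646256-62646505, minus strand): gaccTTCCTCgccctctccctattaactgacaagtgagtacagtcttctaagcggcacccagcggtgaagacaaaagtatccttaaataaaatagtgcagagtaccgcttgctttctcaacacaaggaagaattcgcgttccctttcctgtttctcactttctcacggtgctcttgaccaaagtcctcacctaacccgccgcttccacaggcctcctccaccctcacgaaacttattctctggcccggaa
Ddx58 (chr4:40239826-40240075, minus strand): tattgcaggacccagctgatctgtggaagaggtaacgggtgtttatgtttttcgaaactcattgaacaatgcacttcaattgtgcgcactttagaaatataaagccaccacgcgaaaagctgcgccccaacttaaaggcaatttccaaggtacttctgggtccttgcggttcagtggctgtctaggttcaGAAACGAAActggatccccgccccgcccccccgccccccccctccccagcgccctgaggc
Irak2 (chr6:113638217-113638466, plus strand): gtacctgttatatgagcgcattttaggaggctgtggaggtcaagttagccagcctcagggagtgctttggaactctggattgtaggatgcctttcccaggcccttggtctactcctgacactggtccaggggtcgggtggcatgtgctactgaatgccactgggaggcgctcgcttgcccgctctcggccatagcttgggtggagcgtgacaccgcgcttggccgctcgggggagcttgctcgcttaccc
Myd88 (chr9:119340019-119340268, minus strand): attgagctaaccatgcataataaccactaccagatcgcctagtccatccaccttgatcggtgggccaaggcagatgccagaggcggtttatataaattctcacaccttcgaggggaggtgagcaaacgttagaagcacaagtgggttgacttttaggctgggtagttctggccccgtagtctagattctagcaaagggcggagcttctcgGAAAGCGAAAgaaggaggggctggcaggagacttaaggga
Such windows were listed for 31 of the 42 members, 38 windows in all. No window was listed for Wdfy1, Cd14, Tmem173 and Ticam2, which had the largest falls. Nor was one listed for Lbp, Tlr4, Dhx58, Ly96, Unc93b1, Ripk2 and Tlr7. GAAANNGAAA was found in windows of 3 members (Myd88, Tlr6 and Tlr11) and in 2.98% of the 32851 windows listed for all genes. GAAANGAAA, searched after the Ddx58 sequence had been read, was found in Ddx58 and Tlr12 and in 2.68% of all windows. The NF-kB consensus was found in Tlr2, Irak1, Traf3 and Tlr3 and in 7.25% of all windows, and GAGGAA in 9 members and 23.3% of all windows. With the NF-kB consensus, Tlr2, Irak1 and Traf3 rose and Tlr3 fell; with GAGGAA, Ikbke, Tlr9 and Tlr13 rose, Ifih1, Tlr1, Tlr8 and Traf6 fell, Ticam1 did not pass and Tlr11 was not tested; with GAAANNGAAA, Myd88 and Tlr6 did not pass. These counts are too small to set against the 29.0% of all genes that were higher. A match is a description of letters and not a binding site.

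The libraries held 67.1 to 84.9 M uniquely aligning reads each. Bap1 itself stood at 63.2 ± 0.726 CPM (counts per M reads; SD, n = 4) in the WT libraries against 53.2 ± 0.912 CPM (SD, n = 4) in BAP1 KO, with a log2 fold change of -0.25 ± 0.03 (standard error; edgeR adjusted p = 2.1e-09). By exact permutation of the genotypes over the 8 libraries the p, two-sided, was 0.0286, the lowest value that this many libraries allow. The BAP1 KO mean of Bap1 was 84.2% of the WT mean. Which exons were deleted is not named, so these reads cannot show whether or how fully the gene was deleted. Markers of the labelled cell type differed in level: Upk3b and Wt1 were at 462 and 121 CPM in WT, and Msln and Krt19 at 6.95 and 3.19 CPM. Of all genes tested, 61.1% passed the edgeR test at an adjusted p below 0.05 (29.0% higher and 32.1% lower). Among genes with a mean of at least 10 CPM, 69.3% passed, so that a call for a marker is common in this comparison. Macrophage genes were abundant beside the mesothelial ones. Of 18 macrophage markers, 11 were higher in BAP1 KO, 6 lower and 1 did not pass, with a median log2 fold change of 0.12. Their summed level was 16118 to 16455 CPM in the WT libraries and 18655 to 19290.4 CPM in the BAP1 KO libraries; without the very abundant Lyz2 it was 7893 to 8119 and 7971 to 8171 CPM, ranges that overlap. Of 8 fibroblast markers all fell, their summed level being 19668 to 21027 CPM in WT libraries and 15606 to 16189.6 CPM in BAP1 KO, and of 6 endothelial markers 5 fell, with sums of 45.8 to 47.4 and 29.9 to 32.1 CPM. The 12 mesothelial markers gave 4 higher, 6 lower and 2 without a call, with sums of 1347 to 1381 and 1341 to 1349 CPM. The largest falls (log2 fold change) were in Krt8 (-1.56), Krt18 (-1.38), Msln (-1.19), Efemp1 (-0.84) and Aldh1a2 (-0.72). The largest rises were in Cldn15 (0.81) and Wt1 (0.45). The sums rest mostly on Upk3b, Lrrn4 and Upk1b, at 462, 236 and 230 CPM in WT. The 6 smooth muscle markers gave 3 higher, 1 lower and 2 without a call, with sums of 11896 to 12369.5 and 12123 to 12310.0 CPM that overlap, and of 5 adipocyte markers tested 4 rose and 1, the most abundant (Fabp4), fell (median log2 fold change 1.07, sums of 62.4 to 65.6 and 56.7 to 59.3 CPM). Markers of other leukocytes were scarce: the sums were 7.61 to 8.62 and 6.70 to 7.41 CPM for 6 neutrophil markers (1 of 2 tested fell), 24.9 to 25.4 and 19.6 to 22.5 CPM for 7 dendritic cell markers (2 of 3 tested fell), and 5.02 to 5.28 and 3.13 to 3.53 CPM for 8 lymphocyte markers (1 of 4 tested rose and 1 fell). Most of the neutrophil sum came from Csf3r, at 7.04 CPM in WT. Most of the dendritic cell sum came from Itgax and Zbtb46, at 13.1 and 11.5 CPM in WT. By contrast, S100a9, Ly6g and Cxcr2 of the neutrophil list and Siglech and Flt3 of the dendritic cell list had at most 2 counts in any library. In WT, Cd4 made up most of the lymphocyte sum, and it was the marker that fell, from 3.27 to 1.14 CPM. The lymphocyte marker that rose was Cd79a, from 0.588 to 0.915 CPM. In bulk RNA, fewer cells of a type and less RNA per cell cannot be told apart, and the part of a change in cell make-up in the results below was not tested.

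Most sensing genes differed between the genotypes, more of them lower than higher in BAP1 KO, and mostly by small amounts. Of the 42 members, 40 had enough reads to be tested; Tlr11 and Tlr12, receptors for protozoan profilin, had 0 to 4 counts per library, close to the floor of 3 counts (0.0354 to 0.0447 CPM). Of the 40, 22 fell, 11 rose and 7 did not pass (edgeR quasi-likelihood test, Benjamini-Hochberg adjusted p below 0.05 over all 16929 genes tested). Among all genes tested, 61.1% passed, 32.1% lower and 29.0% higher, so that a call by itself is common in this comparison. The members were also expressed above the average gene, with a median level of 53.1 CPM against 15.5 CPM. Among genes with a mean of at least 10 CPM 69.3% passed (37.4% higher and 31.9% lower), and among the 34 members at that level 28 did. The median log2 fold change was -0.14 over the members and -0.0046 over all genes tested, and the median size of change, whatever its sign, was 0.28 and 0.18. In 30 of the 40 members no library of 1 genotype fell within the range of the other, as in 53.8% of all genes tested. With a log2 fold change of at least 0.5 in either direction, 11 members passed, as did 17.5% of all genes tested. Against a change of 1.5-fold, 5 members were lower (Wdfy1, Cd14, Tmem173, Ticam2 and Ifih1) and 1 higher (Ikbke), where 8.18% of all genes tested passed.

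**Figure D1:**
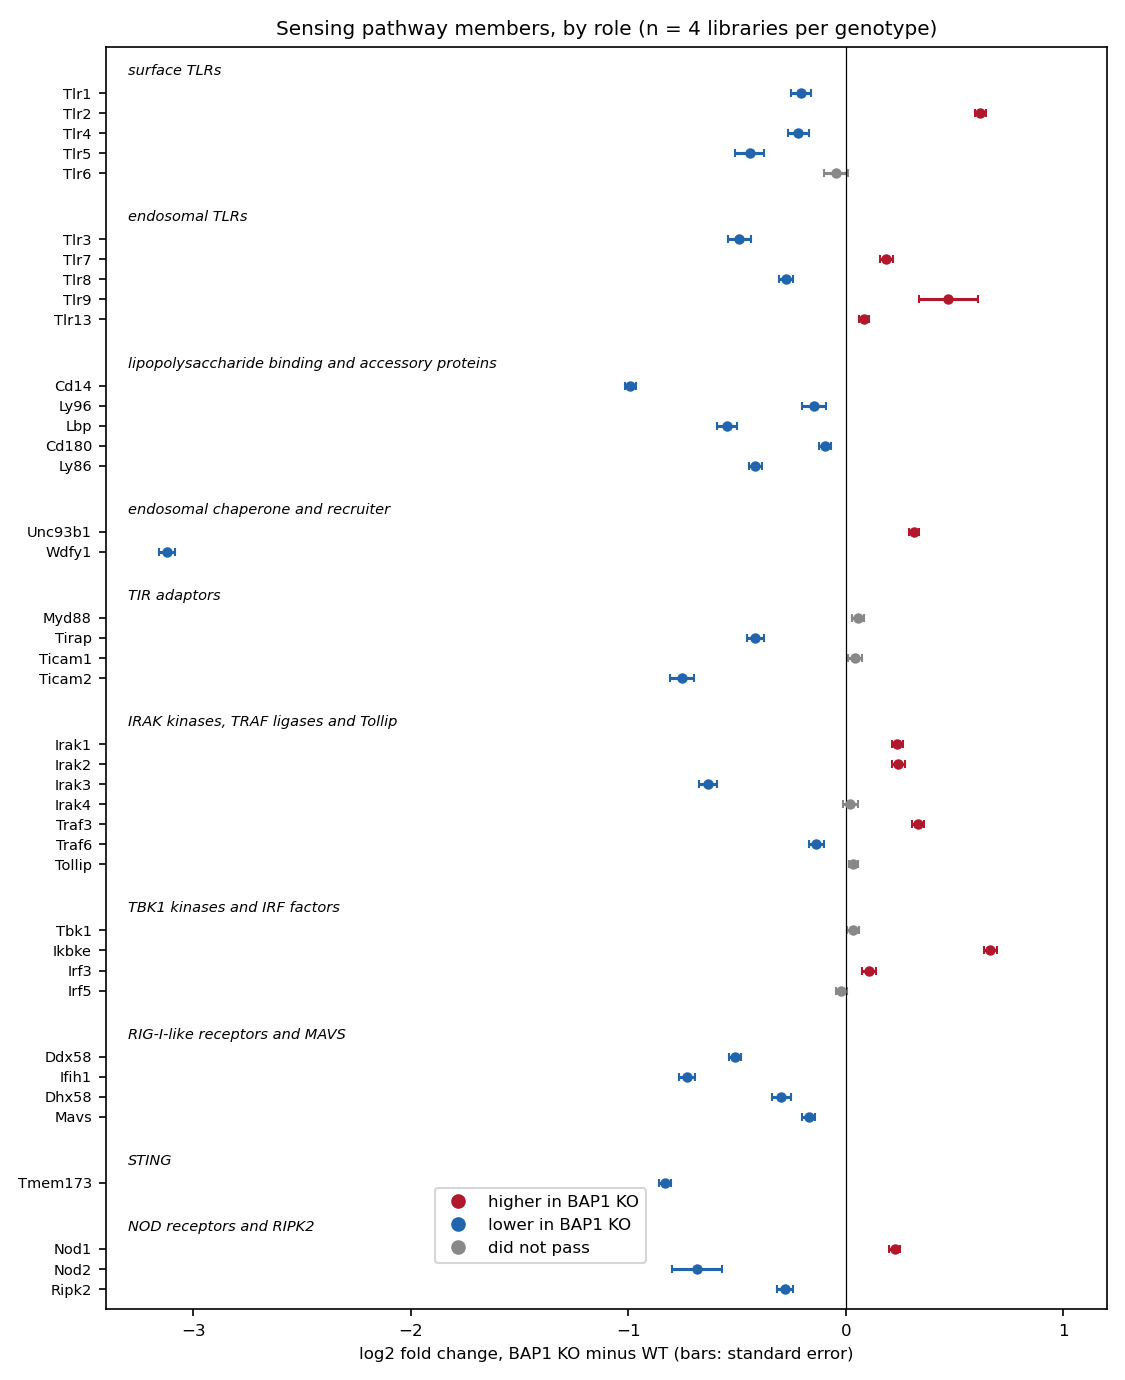
Log2 fold change (BAP1 KO minus WT, x axis) of the 40 tested members, grouped by role on the y axis, with points for the estimate, bars for its standard error and colours for the call at an adjusted p of 0.05. Wdfy1 stands alone at -3.12; the other members lie between -0.99 (Cd14) and 0.66 (Ikbke).

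The receptors at the cell surface moved in different directions. Tlr2, which detects bacterial lipoproteins, was the only surface receptor that rose. Tlr2 (Entrez 24088; GRCm38 chromosome 3, 83836272 to 83841824) was measured at 71.2, 73.2, 76.6 and 74.1 CPM in the WT libraries and at 113, 114, 113 and 113 CPM in the BAP1 KO libraries. Every BAP1 KO library lay above every WT library, by a log2 fold change of 0.62 ± 0.03 (edgeR adjusted p = 2.6e-19). The receptors that pair with TLR2 did not follow it: Tlr1 fell from 14.8 to 12.8 CPM (-0.21 ± 0.04, adjusted p = 0.00018), and Tlr6 was at 8.31 (WT) against 8.06 CPM (BAP1 KO), with a 95% interval of the log2 fold change of -0.16 to 0.07. Tlr1 and Tlr6 lie 19.5 kb apart and share sequence, 15.4% of the 50-base windows of Tlr1 transcripts and 12.3% of those of Tlr6 being found in other genes too. Reads that lie wholly within such stretches do not align uniquely, which makes both levels uncertain. The log2 ratio of Tlr2 to Tlr1 was 2.32 ± 0.04 in WT and 3.15 ± 0.06 in BAP1 KO (SD, n = 4), a ratio within each library that no scaling between libraries can change, and 1 of 14 such ratios chosen after the values were seen and not tested. Tlr4, the receptor for lipopolysaccharide, fell from 92.2 ± 5.56 to 79.1 ± 4.97 CPM (SD; -0.22 ± 0.05, adjusted p = 0.0014). The lowest WT library stood at 86.9 CPM and the highest BAP1 KO library at 85.6 CPM, so that the groups came close without overlapping. Tlr5, the flagellin receptor, fell from 6.64 to 4.89 CPM (-0.44 ± 0.07).

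Of the endosomal receptors, 3 rose and 2 fell. Tlr3, which binds double-stranded RNA, fell from 17.2 ± 0.700 to 12.2 ± 1.14 CPM (SD; -0.49 ± 0.05, adjusted p = 1.9e-09); its exons overlap an antisense transcript over 381 bp, whose reads cannot be told apart with a library kit that does not mark the strand. Tlr7 and Tlr8, receptors for single-stranded RNA that are neighbours on the X chromosome 39.1 kb apart, moved in opposite directions. Tlr7 rose from 95 to 108 CPM (0.19 ± 0.03, adjusted p = 1.2e-06) and Tlr8 fell from 81.2 to 67.1 CPM (-0.27 ± 0.03, adjusted p = 1.7e-08). The log2 ratio of Tlr7 to Tlr8 was 0.23 ± 0.03 in WT and 0.69 ± 0.02 in BAP1 KO (SD). Tlr13, which binds bacterial ribosomal RNA, was the most abundant TLR, at 58.4 ± 1.49 RPKM in WT (the authors' size-factor-adjusted reads per kilobase and M reads, the scale on which genes of different length can be set side by side). It rose by 0.08 ± 0.02 on the log2 scale, from 256 to 271 CPM, and its groups overlapped. Tlr9, the receptor for bacterial DNA, was scarce and rose from 1.01 to 1.41 CPM (0.47 ± 0.14, adjusted p = 0.0038), on 59 to 119 counts per library. After Tlr13 the TLRs stood in the order Tlr2, Tlr4, Tlr7 and Tlr8 in WT, at 23.8 ± 0.731, 23.7 ± 1.42, 23.6 ± 0.938 and 22.5 ± 1.17 RPKM (SD), neighbours that differ by no more than their spread. In BAP1 KO the order was Tlr2, Tlr7, Tlr4 and Tlr8, at 36.8 ± 0.149, 27.0 ± 0.780, 20.5 ± 1.25 and 18.7 ± 0.587 RPKM (SD), of which Tlr2 and Tlr7 stood apart and Tlr4 and Tlr8 were close. The scarcer receptors Tlr1, Tlr3, Tlr5, Tlr6 and Tlr9 lay between 4.38 ± 0.0453 and 0.289 ± 0.0407 RPKM in WT.

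All 5 genes listed for lipopolysaccharide binding and accessory proteins fell, where 32.1% of all genes tested were lower. Cd14 is the co-receptor that hands lipopolysaccharide to TLR4. Cd14 (Entrez 12475; GRCm38 chromosome 18, 36725064 to 36726815) was measured at 145, 148, 149 and 153 CPM in the WT libraries and at 75.5, 75.8, 73.6 and 74.5 CPM in the BAP1 KO libraries. The groups lay far apart, and the BAP1 KO mean was 50.3% of the WT mean, a log2 fold change of -0.99 ± 0.02 (edgeR adjusted p = 4.3e-25). Set against Cd14, Tlr4 had a log2 ratio of -0.69 ± 0.12 in WT and 0.08 ± 0.11 in BAP1 KO (SD). Lbp encodes the protein that extracts lipopolysaccharide from bacterial membranes. Lbp (Entrez 16803; GRCm38 chromosome 2, 158306493 to 158332852) was measured at 16.1, 16.6, 17.4 and 17.0 CPM in the WT libraries and at 11, 11.8, 11.5 and 11.7 CPM in the BAP1 KO libraries. The groups did not overlap, with a log2 fold change of -0.55 ± 0.04 (adjusted p = 3.9e-12). Ly96, the lipid-binding subunit of TLR4, fell slightly, from 9.21 to 8.29 CPM (-0.15 ± 0.06, adjusted p = 0.023), with overlapping groups. That call was lost without WT replicate 3 (-0.13, adjusted p = 0.066), BAP1 KO replicate 1 (-0.11, 0.098) or BAP1 KO replicate 4 (-0.14, 0.051), and over all alternatives other than the test against 1.5-fold its adjusted p ran from 0.0098 to 0.098. Cd180, a TLR4-like receptor without a signalling domain, fell from 87.5 to 81.9 CPM (-0.10 ± 0.03, edgeR adjusted p = 0.0046), with overlapping groups. The gene of its partner subunit, Ly86, fell from 79.2 to 59.3 CPM (-0.42 ± 0.03, adjusted p = 1.1e-13). Cd180 over its subunit had a log2 ratio of 0.14 ± 0.08 in WT and 0.46 ± 0.03 in BAP1 KO (SD). Exons of Cd180 overlap those of Mast4 over 182 bp on the opposite strand; Mast4 did not pass (adjusted p = 0.62).

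**Figure D2:**
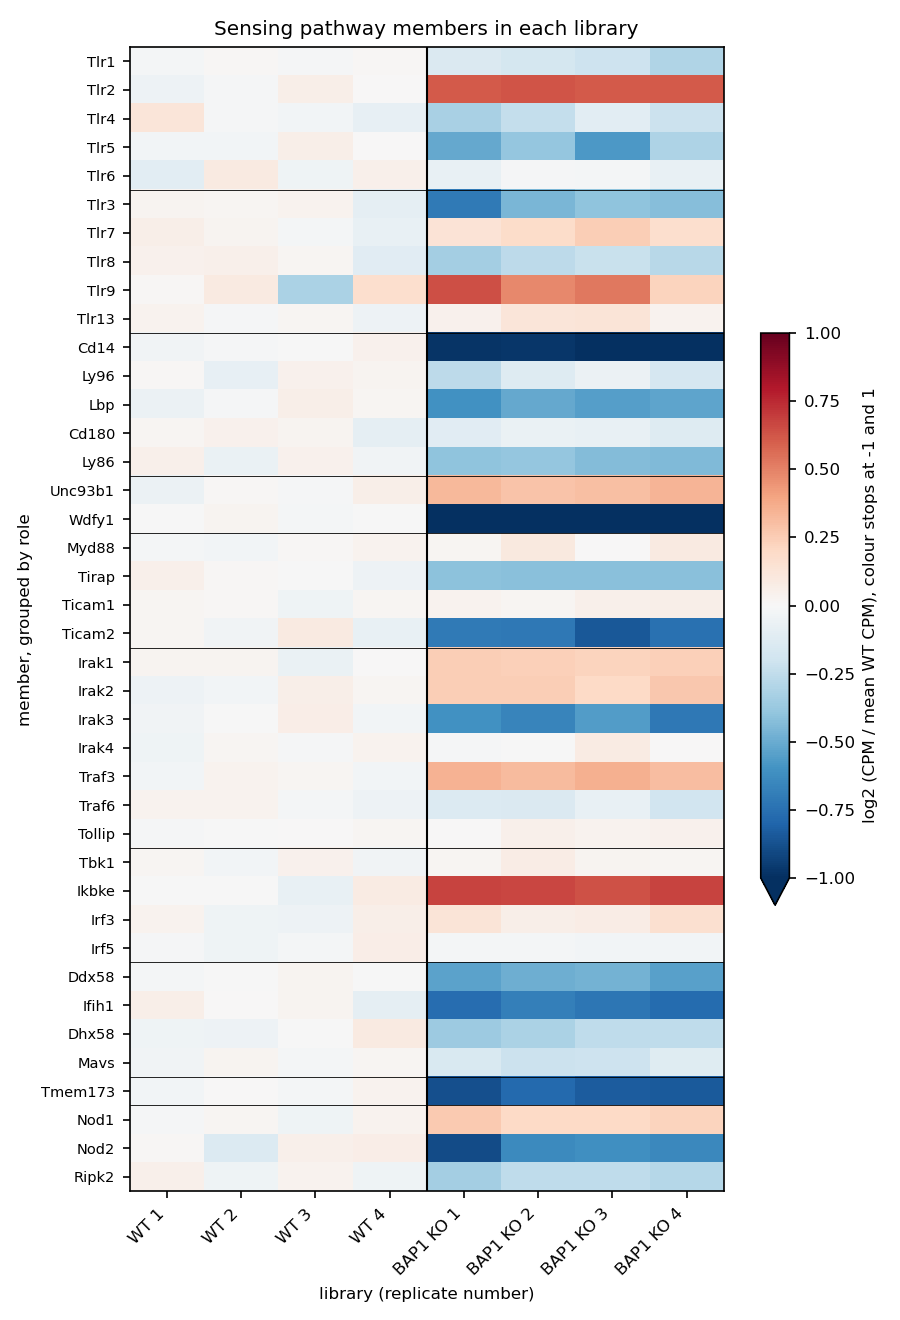
Level of each tested member (rows, grouped by role) in each of the 8 libraries (columns), as the log2 of its CPM over the mean of the 4 WT libraries; the colour stops at -1 and 1, below which Wdfy1 in BAP1 KO lies. Within a genotype the libraries look alike, and the BAP1 KO columns separate blue rows such as Cd14, Ifih1 and Tmem173 from red rows such as Tlr2 and Ikbke.

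The genes of the endosomal proteins UNC93B1 and WDFY1 changed in opposite directions, and Wdfy1 had the largest change of all members. WDFY1 is a FYVE-domain protein reported to bring TRIF to TLR3 and TLR4. Wdfy1 (Entrez 69368; GRCm38 chromosome 1, 79702262 to 79776143) was measured at 85, 86.8, 83.8 and 84.9 CPM in the WT libraries and at 8.97, 9.85, 10.4 and 9.83 CPM in the BAP1 KO libraries. The BAP1 KO mean was 11.5% of the WT mean, with a log2 fold change of -3.12 ± 0.04 (edgeR adjusted p = 3.6e-33). Exons of Wdfy1 overlap those of Mrpl44 over 126 bp on the opposite strand, and Mrpl44 rose, with a log2 fold change of 0.16 ± 0.04. Unc93b1, the chaperone that carries the nucleic acid-sensing TLRs to the endosome, rose from 199 ± 6.97 to 247 ± 4.64 CPM (SD; 0.31 ± 0.02, adjusted p = 1.1e-12). At 86.8 ± 3.06 RPKM in WT it stood below Cd14, at 98.1 ± 2.26 RPKM, and in BAP1 KO above it, at 109 ± 2.20 against 49.8 ± 0.705 RPKM (SD).

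Among the adaptors, the genes of the bridging proteins fell and those of the central ones did not pass. Ticam2 encodes TRAM, which links TLR4 to TRIF. Ticam2 (Entrez 225471; GRCm38 chromosome 18, 46558231 to 46574533) was measured at 11.4, 11, 12.0 and 10.7 CPM in the WT libraries and at 6.90, 6.88, 6.27 and 6.73 CPM in the BAP1 KO libraries. The groups did not overlap, with a log2 fold change of -0.75 ± 0.06 (edgeR adjusted p = 3.8e-13). Its level is uncertain, because its exons share 838 bp with Tmed7 on the same strand, and 14.7% of its 50-base windows occur in other genes; Tmed7 stood at 164 and 166 CPM, as the means of WT and BAP1 KO (adjusted p = 0.59). Tirap, which links TLR2 and TLR4 to MyD88, fell from 22.5 ± 0.641 to 16.8 ± 0.0645 CPM (SD; -0.42 ± 0.04, adjusted p = 6e-11), and it overlaps an antisense transcript over 446 bp. Ticam1, which encodes TRIF, was at 33.6 (WT) against 34.5 CPM (BAP1 KO) (adjusted p = 0.28; 95% interval -0.02 to 0.10). Myd88 was at 63.0 (WT) against 65.4 CPM (BAP1 KO) (adjusted p = 0.094; 95% interval -0.0029 to 0.11). It passed, at 0.06 to 0.07, with RLE factors, with limma on the deposited RPKM and without BAP1 KO replicate 3 (0.07, adjusted p = 0.046), and its adjusted p ran from 0.046 to 0.26. The log2 ratio of Ticam1 to Ticam2 was 1.57 ± 0.10 in WT and 2.37 ± 0.07 in BAP1 KO (SD), and that of Myd88 to Tirap was 1.49 ± 0.07 in WT and 1.96 ± 0.05 in BAP1 KO (SD).

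Of the IRAK kinases 2 rose, 1 fell and 1 did not pass. Irak1 and Irak2, which pass the signal from MyD88 to TRAF6, rose by 0.24 ± 0.03 and 0.24 ± 0.03, from 88.2 to 104 CPM and from 47.1 to 55.7 CPM. Irak3 encodes IRAK-M, a member of the family that inhibits the signal. Irak3 (Entrez 73914; GRCm38 chromosome 10, 120141648 to 120202130) was measured at 21.9, 22.3, 23.5 and 22.0 CPM in the WT libraries and at 14.7, 14.2, 15.2 and 13.7 CPM in the BAP1 KO libraries. Its genotypes did not overlap, with a log2 fold change of -0.63 ± 0.04 (edgeR adjusted p = 3.7e-14); exons overlap Tmbim4 over 192 bp on the opposite strand. Irak2 over Irak3 gave a log2 ratio of 1.07 ± 0.03 in WT and 1.95 ± 0.10 in BAP1 KO (SD). Irak4, the kinase that starts the cascade, was at 28.2 (WT) against 28.6 CPM (BAP1 KO) (adjusted p = 0.64; 95% interval -0.05 to 0.09). Tollip, an adaptor that restrains IRAK1, was at 131 (WT) against 134 CPM (BAP1 KO) (adjusted p = 0.19; 95% interval -0.01 to 0.08). Traf3, the ligase that leads from TRIF and MAVS to TBK1, rose from 52.9 to 66.6 CPM (0.33 ± 0.03, adjusted p = 5.1e-12), and Traf6, the ligase that leads to NF-kB, fell from 32.3 to 29.4 CPM (-0.14 ± 0.03, adjusted p = 0.001).

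Of the kinases and transcription factors of the interferon arm, Ikbke had the largest change. It encodes IKK-epsilon, a kinase that, like TBK1, phosphorylates IRF3. Ikbke (Entrez 56489; GRCm38 chromosome 1, 131254600 to 131279601) was measured at 42.3, 42.2, 40.3 and 44.7 CPM in the WT libraries and at 67.8, 67.3, 65.7 and 67.5 CPM in the BAP1 KO libraries. The BAP1 KO libraries all lay above the WT libraries, with a log2 fold change of 0.66 ± 0.03 (edgeR adjusted p = 3.6e-18). The annotated antisense transcripts Gm28913 and Gm28914 share 65 and 159 bp of exon with Ikbke, and reads from the shared stretches cannot be told apart. Gm28913 rose by 0.61 ± 0.11 at 1.27 CPM in WT. Tbk1 was at 56.0 (WT) against 57.3 CPM (BAP1 KO) (adjusted p = 0.32; 95% interval -0.02 to 0.09), and the log2 ratio of Ikbke to Tbk1 was -0.40 ± 0.10 in WT and 0.23 ± 0.03 in BAP1 KO (SD). Irf3 rose from 36.8 to 39.6 CPM (0.11 ± 0.03, adjusted p = 0.0075), with groups that overlapped. Irf5, a factor downstream of MyD88, was at 89.9 (WT) against 88.6 CPM (BAP1 KO) (adjusted p = 0.49; 95% interval -0.07 to 0.03). Exons of Myd88, Irak4 and Irf5, none of which passed, overlap on the opposite strand those of Acaa1a (290 bp), Twf1 (395 bp) and Tnpo3 (411 bp), which rose by 0.10 ± 0.03, 0.19 ± 0.02 and 0.10 ± 0.02. Irf3, Dhx58 and Irak2 overlap Bcl2l12 (88 bp), Dhx58os (141 bp) and Gm43963 (196 bp) in the same way.

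All 4 genes of the RIG-I-like arm fell, and so did the gene of STING, where 32.1% of all genes tested were lower. Ifih1 encodes MDA5, the sensor of long double-stranded RNA. Ifih1 (Entrez 71586; GRCm38 chromosome 2, 62595618 to 62646255) was measured at 40.1, 38.5, 39.2 and 36.1 CPM in the WT libraries and at 22.7, 24.0, 23.4 and 22.6 CPM in the BAP1 KO libraries. The groups did not overlap, with a log2 fold change of -0.73 ± 0.04 (edgeR adjusted p = 2.9e-17). Ddx58 encodes RIG-I, which detects short RNA with a triphosphate end. Ddx58 (Entrez 230073; GRCm38 chromosome 4, 40203777 to 40239825) was measured at 77.4, 78.2, 80.1 and 78.4 CPM in the WT libraries and at 54.1, 55.8, 56.5 and 53.8 CPM in the BAP1 KO libraries. It fell by 0.51 ± 0.03 on the log2 scale (adjusted p = 1.1e-16), again without overlap. The log2 ratio of Ddx58 to Ifih1 was 1.03 ± 0.07 in WT and 1.25 ± 0.02 in BAP1 KO (SD). Dhx58, whose product LGP2 tunes the other sensors, fell from 18.4 to 15 CPM (-0.30 ± 0.04), and their common adaptor Mavs from 58.8 to 52.2 CPM (-0.17 ± 0.03, adjusted p = 6.4e-06). Tmem173 encodes STING, which passes the signal of cGAS to TBK1. Tmem173 (Entrez 72512; GRCm38 chromosome 18, 35733678 to 35740554) was measured at 95.1, 97.1, 95.5 and 99.2 CPM in the WT libraries and at 52.7, 56.4, 54.2 and 54.1 CPM in the BAP1 KO libraries. No values of the groups overlapped. RNA of STING thus stood at 56.2% of its WT level, a log2 fold change of -0.83 ± 0.03 (adjusted p = 6.2e-22), the third lowest after Wdfy1 and Cd14. Its upstream enzyme Mb21d1 (cGAS) fell from 9.05 to 7.09 CPM (-0.35 ± 0.06), and the log2 ratio of Tmem173 to Mb21d1 was 3.42 ± 0.12 in WT and 2.94 ± 0.06 in BAP1 KO (SD).

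**Figure D3:**
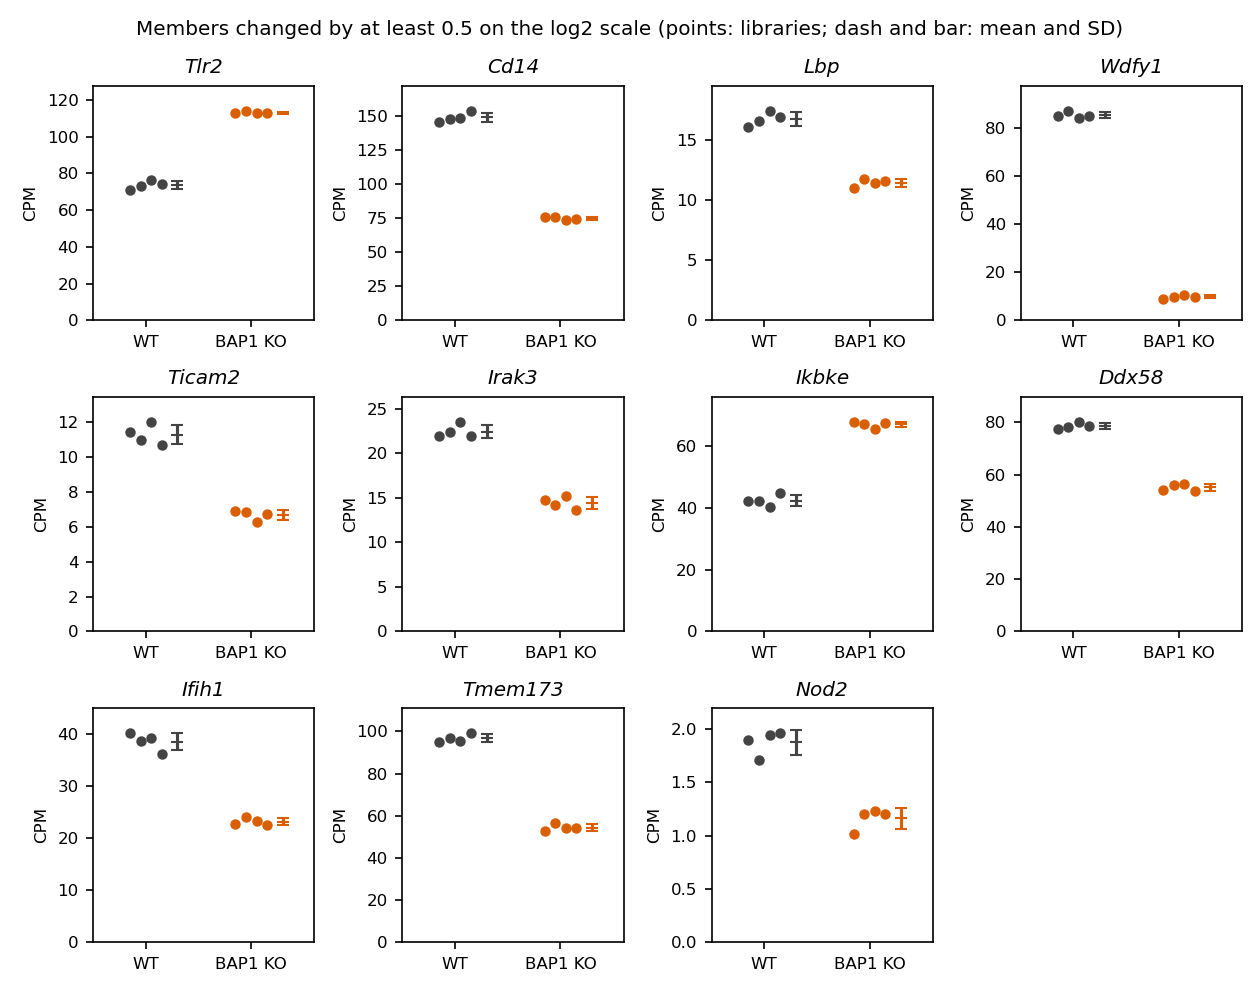
CPM (y axis, from 0) of the 11 members that passed the test with a log2 fold change of at least 0.5 in either direction, in the 4 WT (grey) and 4 BAP1 KO (orange) libraries; points are libraries, and the dash with its bar is the mean and SD. In each panel the genotypes do not overlap; Tlr2 and Ikbke are higher in BAP1 KO and the other 9 are lower.

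The NOD receptors, which detect peptidoglycan fragments in the cytosol, moved apart. Nod1 rose from 69.6 ± 1.75 to 81.3 ± 1.66 CPM (SD; 0.22 ± 0.03, adjusted p = 1.6e-08). Nod2 (Entrez 257632; GRCm38 chromosome 8, 88647315 to 88688474) was measured at 1.89, 1.71, 1.94 and 1.96 CPM in the WT libraries and at 1.01, 1.21, 1.23 and 1.2 CPM in the BAP1 KO libraries, on 70 to 151 counts per library. All BAP1 KO libraries lay below the WT libraries, with a log2 fold change of -0.68 ± 0.12 (edgeR adjusted p = 7.6e-06). Ripk2, the kinase that both receptors use, fell from 26.7 to 21.9 CPM (-0.28 ± 0.04, adjusted p = 1.1e-07). Nod2 was scarce beside Nod1, at 0.396 ± 0.0249 against 15.3 ± 0.384 RPKM in WT (SD).

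**Figure D4:**
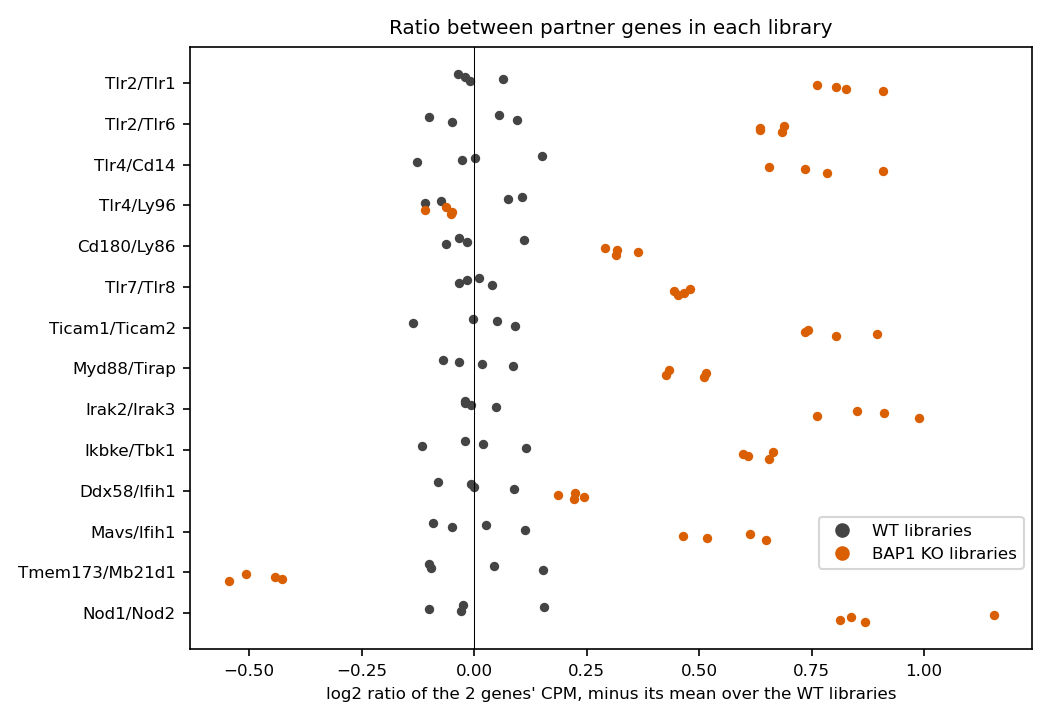
Log2 ratio between the CPM of 14 pairs of genes that act together or resemble each other (y axis), as the difference from the pair's mean over the WT libraries (x axis); each point is 1 library, WT in grey and BAP1 KO in orange. Tlr4/Ly96 keeps the genotypes mixed, Tmem173/Mb21d1 lies below WT in BAP1 KO, and the other 12 ratios lie above; the pairs were chosen after the values were seen and were not tested.

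Other genes of the pathway, 97 in 8 lists, moved both ways too: of 94 tested, 28 rose, 46 fell and 20 had no call (median log2 fold change -0.07). The share called was 78.7% over these genes, beside 61.1% of all genes tested (29.0% higher and 32.1% lower). Most of these pathway genes were above 10 CPM, and among all genes with a mean of at least 10 CPM 69.3% passed. By list the share called was lowest in the TAK1 and IKK module (58.3%) and the regulators of RIG-I, MAVS and STING (66.7%). Both are near the shares of all genes. It was highest in the cytokines and chemokines (92.3%). The list with the lowest median was that of interferon-stimulated genes. Its 18 genes gave 15 lower, 1 higher and 2 without a call, at a median of -0.50. Whether these falls and those of the RNA and DNA sensors are related was not tested. Ifit1, an RNA-binding antiviral protein, fell from 17.3 ± 0.220 to 8.86 ± 0.441 CPM (SD; -0.97 ± 0.05), and Rsad2, Ifit3, Usp18 and Ifi44 fell with log2 fold changes of -0.87 ± 0.07, -0.82 ± 0.06, -0.79 ± 0.05 and -0.79 ± 0.07. Transcription factors at the end of the cascade moved the other way. These 8 genes gave 6 higher, 1 lower and 1 without a call (median 0.21): the NF-kB subunit Relb rose from 34.3 ± 0.858 to 52.2 ± 1.84 CPM (SD; 0.60 ± 0.03), and Nfkb2, Rel, Irf7 and Rela by 0.29 ± 0.03, 0.24 ± 0.06, 0.22 ± 0.03 and 0.20 ± 0.03.

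Cytokines and chemokines that these receptors induce split. There were 8 lower, 4 higher and 1 without a call among 13 tested (median -0.19); Ifnb1, Il12b and Nos2 had at most 11 counts in any library and were not tested. The chemokine Ccl4 fell from 72.6 to 40.9 CPM (-0.83 ± 0.03), the prostaglandin enzyme Ptgs2 from 66.0 to 39.6 CPM (-0.73 ± 0.03) and the neutrophil chemokine Cxcl2 from 13.6 to 8.88 CPM (-0.61 ± 0.06). In contrast, the anti-inflammatory Il10 rose from 1.94 to 4.35 CPM (1.16 ± 0.09) and the chemokine Cxcl10 from 8.69 to 12.8 CPM (0.56 ± 0.05). Cxcl10 is often counted among the interferon-stimulated genes, most of which fell here.

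Between receptor and output, the DNA sensors and nucleases included 5 that fell, 3 that rose and 2 without a call among 10 (median -0.18). Zbp1, a sensor of left-handed nucleic acids, and Aim2, the DNA sensor of an inflammasome, fell by 0.75 ± 0.05 and 0.59 ± 0.06, and Ifi204 from 87.7 to 71.8 CPM (-0.29 ± 0.03). Trex1, the exonuclease that clears cytosolic DNA, rose from 24.9 to 37.3 CPM (0.59 ± 0.04). In the TAK1 and IKK module 5 fell, 2 rose and 5 did not pass among 12 (median 0.02), and the largest falls were in the 3 Pellino ligases, which act on IRAK proteins: Peli3 (-0.82 ± 0.08), Peli2 (-0.74 ± 0.07) and Peli1 (-0.35 ± 0.04). Ikbkg, the regulatory IKK subunit, rose (0.19 ± 0.03) and the kinase Ikbkb fell (-0.16 ± 0.03). Brakes of the pathway included 4 that rose, 3 that fell and 3 without a call among 10 (median 0.01), with the NF-kB inhibitor Nfkbia at 0.27 ± 0.03, Socs1 at 0.36 ± 0.09, Socs3 at 0.20 ± 0.03, Il1rl1 at -0.54 ± 0.08 and the deubiquitinase Tnfaip3 at -0.16 ± 0.04. Regulators of RIG-I, MAVS and STING moved little, 2 up, 4 down and 3 not passing among 9 (median -0.03), with Nlrc5 at -0.24 ± 0.05 and Zc3hav1 at -0.20 ± 0.03. Among endosomal partners and co-receptors of the TLRs, 6 rose, 5 fell and 3 did not pass of 14 (median 0.01). The TLR2 co-receptor Cd36 fell from 444 ± 12.3 to 219.8 ± 8.70 CPM (SD; -1.01 ± 0.03), the endosomal transporter Slc15a3 fell from 194 to 118 CPM (-0.72 ± 0.03), and the protease Ctsk rose from 29.1 to 48.7 CPM (0.75 ± 0.03).

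**Figure D5:**
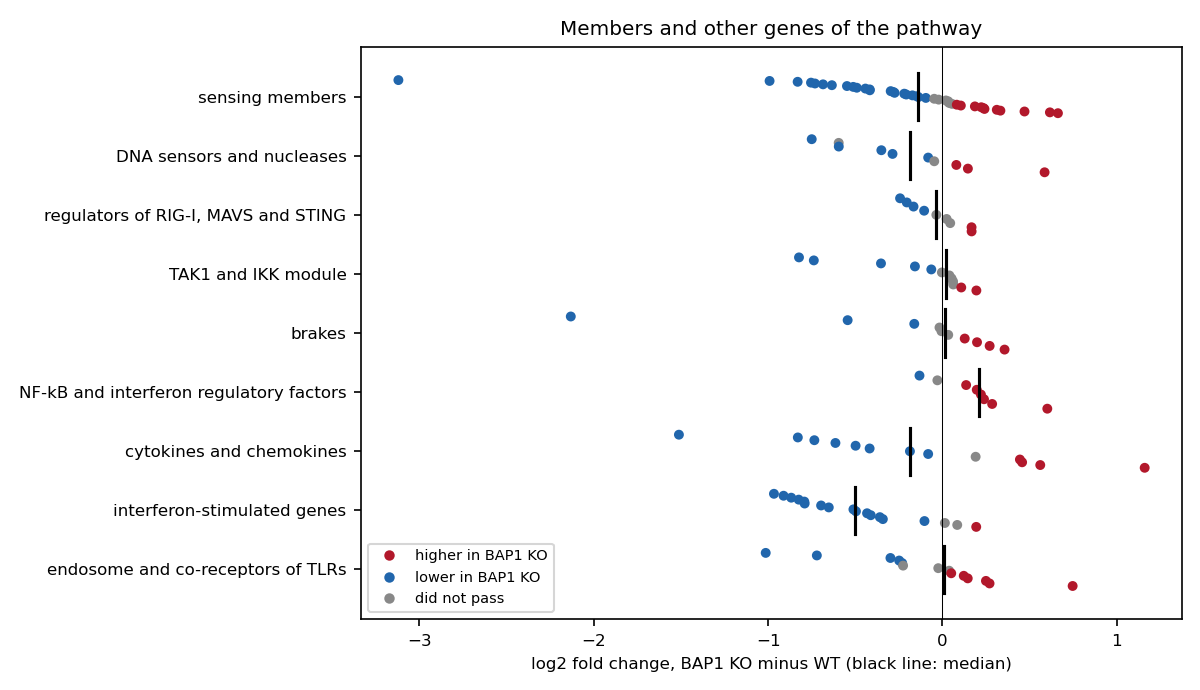
Log2 fold change (BAP1 KO minus WT, x axis) of the 40 tested members and of the tested genes of 8 further lists of the pathway (y axis); each point is 1 gene, coloured by its call, and black lines are medians. The medians of interferon-stimulated genes (-0.50) and of NF-kB and interferon regulatory factors (0.21) lie on opposite sides of 0.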

How the data were processed

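Polyadenylated RNA of 8 libraries was measured. Per the labels' protocols, it was sequenced as single-end reads from the TruSeq RNA v2 kit, the version that does not mark strand. The submitters' processing notes name the aligner GSNAP and GRCm38 as the build. The annotation was not found in the labels or headers. The deposited counts are uniquely aligning reads per Entrez gene, per the file headers, which lowers genes with near-identical copies. Per the file headers, the deposited RPKM include a size-factor adjustment; they were used here for levels between genes and in 1 alternative.

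Of 36528 identifiers, 31049 were given a symbol from RefSeq (GRCm38.p6) and 78 from GENCODE vM21. Counts were tested with edgeR 4.0.16 in R 4.3.3 (quasi-likelihood F test, robust dispersion, TMM factors, filterByExpr by genotype, all 8 libraries), with Benjamini-Hochberg adjustment over the 16929 genes tested and a threshold of 0.05. CPM are counts per M reads of the TMM-adjusted total. The standard error is the fold change over the square root of F, and 95% intervals use it with the fit's degrees of freedom. Alternatives were RLE and upper quartile factors, library totals, no filter, CPM above 1 in 4 libraries, DESeq2 1.42.0, limma-voom and limma (3.58.1) on log2(RPKM + 0.1), a test against 1.5-fold, and each library left out.

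All 42 members, and up to 5 genes of each other list with the largest called changes at 1 CPM or more, could be named. Sigirr and Il1b, below 1 CPM, were added for the size of their falls. Members called at 0.5 or more (log2) are given library by library. Members and lists were chosen with earlier results of these data known. The floor of 3 counts covers counting error only.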

Additional observations from a re-analysis of the deposited data

Results flagged for a closer look

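In each genotype, each tested member and Bap1 were searched for a library far from the other 3, by its gap to the nearest over the whole range (above Dixon's 95% limit for 4 values). Of 82 groups of 4 libraries, 5 held one; chance gives about 1 in 20. Tlr3 was low in WT replicate 4, at 16.2 CPM against 17.5 to 17.7 CPM in the other 3. Ticam1 was low in WT replicate 3, at 32.5 against 33.9 to 33.9 CPM. Irak4 was high in BAP1 KO replicate 3, at 29.9 against 28 to 28.3 CPM, and Tbk1 in BAP1 KO replicate 2, at 58.9 against 56.7 to 57.0 CPM. Nod2 was low in BAP1 KO replicate 1, at 1.01 against 1.2 to 1.23 CPM. The 5 values came from 5 different libraries.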

How the results depend on the processing

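Over 16 alternatives other than the test against 1.5-fold, 36 of the 40 tested members kept their direction and their side of the threshold. The exceptions were Ly96 and Myd88, given above, and 2 members that did not pass and changed sign near 0: Irak4 without BAP1 KO replicate 3 (-0.0037; -0.0037 to 0.030 over all libraries left out) and Irf5 without WT replicate 4 (0.00081; -0.036 to 0.00081); the cause was not tested. Against a 1.5-fold change, 1 member was higher and 5 lower, 2 other pathway genes were higher and 14 lower, and Bap1 (-0.25) did not pass; this test asks for more than a difference from 0. With each library left out, 11 to 12 members were higher and 21 to 22 lower, 27 to 29 other pathway genes were higher and 44 to 46 lower, and the log2 fold change of Bap1 was -0.26 to -0.24. Scaling moved the median of all genes by at most 0.015 (log2). The count of interferon-stimulated genes that rose was 2 in place of 1 with RLE factors, with limma on the deposited RPKM and without BAP1 KO replicate 3. None of the 14 partner ratios moved by more than 1 SD without any 1 library. The same held with the deposited RPKM, which could not have moved them. Library scaling and gene length cancel in the difference between genotypes. No paired analysis was possible because the labels give no replicate numbers; those used here follow accession order and are only names. Depth limits Tlr9, Nod2, Tlr11 and Tlr12, which had at most 151 counts in a library.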

Other observations

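Apart from Tlr1 and Tlr6 and from Tlr7 and Tlr8, the closest members on a chromosome were Tmem173 and Cd14, 0.985 Mb apart on chromosome 18, which both fell (-0.83 ± 0.03 and -0.99 ± 0.02), and Irak3 and Tbk1, 1.34 Mb apart on chromosome 10, of which Irak3 fell (-0.63 ± 0.04) and Tbk1 did not pass (0.03 ± 0.03, edgeR adjusted p = 0.32). These neighbours were read from the annotation after the values were seen, and nothing was tested on their position.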
